A study of Mus musculus with 4 samples.

Results

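The genes described here are 35 mouse genes of the interferon response and of antigen presentation, chosen by symbol and sorted into 3 groups by their known roles. The interferon-induced group holds 21 genes (15 effectors, 2 sensors of viral RNA and 4 transcription factors), the major histocompatibility complex (MHC) class I group holds 9, and the MHC class II group holds 5. Of the 35, 33 had a row among the 34615 gene rows of the count tables: 20 interferon-induced, 8 class I and 5 class II genes. The expression of Irf1 and Psmb9 was not analysed here. All 33 passed the low-count filter and were tested.

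The cells came from outgrowths formed by transplanted mouse mammary epithelium, and the study asked which genes depend on the microRNA miR-205 in the basal layer of the gland. KO cells carried miR-205 alleles flanked by loxP sites (miR-205fl/fl) and a homozygous Rosa mTmG reporter, which turns from red to green fluorescence after recombination, and WT cells carried the same reporter with wild-type miR-205. Both were treated with an adenovirus carrying Cre and transplanted into SCID-Beige hosts 3 weeks old, and 40 outgrowths were pooled 8 weeks later. Green basal cells (CD24+ with high CD49f) were sorted and their RNA sequenced, giving 2 KO and 2 WT libraries. Cre came from the virus, so no promoter limited deletion to 1 cell type before the sort. SCID-Beige mice lack mature T and B cells and have impaired natural killer cells, but keep myeloid cells. No label says whether the 2 libraries of a genotype came from separate pools, so every p-value rests on a spread between libraries that could be technical.

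Interferons are secreted when a cell senses foreign or misplaced nucleic acid, and act on the same or neighbouring cells. The type I receptor signals through JAK kinases to a complex that holds Stat2 and Irf9, which binds interferon-stimulated response elements (ISREs) in the promoters of genes for antiviral proteins. MHC class I molecules display peptides from inside almost any cell, whereas class II molecules display endocytosed peptides mainly on professional antigen-presenting cells, and epithelial cells make them at lower levels.

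Gene counts per library were 60030932 and 47953972 in KO and 53067076 and 57650462 in WT. Mir205 itself had 0 counts in all 4 libraries, so the genotype labels could not be checked from the deleted gene. Basal markers were abundant: the 11 measured genes of that list summed to 14460.2 and 12746 CPM (counts per 1e6 gene counts) in KO and 12489 and 12099 CPM in WT. The 14 luminal markers summed to 1271 and 2129 CPM in KO and 1169.8 and 1804 CPM in WT. KO replicate 2 stood apart: it had a count for 12679 genes, against 18897 in KO replicate 1 and 18139 and 18027 in WT. Its log2 CPM correlated with the other libraries at 0.88 to 0.888, whereas the other libraries correlated with each other at 0.965 to 0.976 (across genes, which are not independent replicates). Many results below are given with and without this library. CPM values are scaled by TMM factors, and a library with 0 counts allows up to 3 counts, which is 0.0477 to 0.0719 CPM on that scale, for counting error only.

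Promoter sequences are shown first for some of the genes that held an ISRE core, so that the response elements can be read beside the expression values. They come from RefSeq on GRCm38.p6, run 5′ to 3′ on the gene's strand from 250 bases before to 50 bases after the annotated start, and were found for 25 of the 35 genes, Psmb9 among them. The ISRE core was searched on both strands as GAAANNGAAA, with overlapping matches counted, and stands in capitals.
Isg15 (chr4:156200769-156201068, minus strand): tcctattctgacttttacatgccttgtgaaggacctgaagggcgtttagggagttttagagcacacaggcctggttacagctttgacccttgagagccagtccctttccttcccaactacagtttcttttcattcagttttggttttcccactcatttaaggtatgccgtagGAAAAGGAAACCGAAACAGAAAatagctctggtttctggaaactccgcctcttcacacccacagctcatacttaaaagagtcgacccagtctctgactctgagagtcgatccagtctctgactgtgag
Ifit1 (chr19:34640639-34640938, plus strand): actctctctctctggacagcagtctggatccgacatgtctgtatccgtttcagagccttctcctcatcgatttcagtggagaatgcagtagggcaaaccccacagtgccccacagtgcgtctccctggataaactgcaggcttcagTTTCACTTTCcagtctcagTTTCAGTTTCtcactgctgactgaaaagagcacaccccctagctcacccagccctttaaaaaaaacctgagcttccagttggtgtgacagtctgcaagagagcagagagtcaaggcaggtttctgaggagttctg
Ifit3 (chr19:34583279-34583578, plus strand): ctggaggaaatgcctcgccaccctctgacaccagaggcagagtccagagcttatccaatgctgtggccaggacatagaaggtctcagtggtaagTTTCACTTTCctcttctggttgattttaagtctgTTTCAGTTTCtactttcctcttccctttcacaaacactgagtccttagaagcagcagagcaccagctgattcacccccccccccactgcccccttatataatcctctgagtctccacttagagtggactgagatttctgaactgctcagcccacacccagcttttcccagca
Gbp2 (chr3:142620413-142620712, plus strand): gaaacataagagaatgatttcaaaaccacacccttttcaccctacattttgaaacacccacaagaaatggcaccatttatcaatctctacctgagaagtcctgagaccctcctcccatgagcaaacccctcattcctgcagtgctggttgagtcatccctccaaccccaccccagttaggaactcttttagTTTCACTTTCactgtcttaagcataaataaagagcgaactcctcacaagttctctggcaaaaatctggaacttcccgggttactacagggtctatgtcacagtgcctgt
B2m (chr2:122147437-122147736, plus strand): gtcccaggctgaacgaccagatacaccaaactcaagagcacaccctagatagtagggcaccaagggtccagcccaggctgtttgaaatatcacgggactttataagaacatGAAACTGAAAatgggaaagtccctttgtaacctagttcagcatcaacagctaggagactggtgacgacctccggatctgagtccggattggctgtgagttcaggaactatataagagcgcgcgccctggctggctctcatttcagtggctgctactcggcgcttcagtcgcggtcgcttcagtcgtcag

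The Isg15 promoter held 3 overlapping cores, starting at -78, -72 and -66 from the annotated start. Ifit1 had cores at -104 and -85, and Ifit3 at -156 and -122, read as the reverse complement. Gbp2 held a single core at -59 and B2m a single core at -139. Of the 16 interferon-induced genes with a promoter sequence, 11 held the core, against 1 of 7 class I genes (B2m, with Psmb9 counted among the 7) and 0 of 2 class II genes. Counted the same way by gene, 3.99% of all 27025 genes with a RefSeq promoter held it. The interferon-induced genes with a promoter sequence but no core in it were Ifit2, Ifi44, Oasl2, Irf7 and Irf9.

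Class II genes are instead known for a conserved promoter module that ends in a Y box, a site read on either strand around the letters ATTGG. The H2-Aa promoter is shown with this box in capitals as the class II example.
H2-Aa (chr17:34287774-34288073, minus strand): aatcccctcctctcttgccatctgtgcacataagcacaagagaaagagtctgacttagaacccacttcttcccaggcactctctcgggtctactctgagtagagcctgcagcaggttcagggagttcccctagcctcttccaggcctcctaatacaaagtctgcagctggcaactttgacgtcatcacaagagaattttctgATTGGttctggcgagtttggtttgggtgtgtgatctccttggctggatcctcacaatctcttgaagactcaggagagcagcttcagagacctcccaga

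Both class II genes with a sequence, H2-Aa and H2-Eb1, held ATTGG, as did 6 of 7 class I genes and 4 of 16 interferon-induced genes. The windows of the class I genes Tap1 and Psmb9 overlap on opposite strands, and the same site was counted for both. These letters are common, and 41.06% of all genes with a promoter held them. The gamma-interferon site TTCNNNGAA stood in 3 interferon-induced genes and 1 class I gene, against 9.55% of all genes with a promoter. A match is a description of the letters in this window and not a site shown to be bound.

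The microRNA deleted in KO cells is printed with its seed, bases 2 to 8, in capitals.
mmu-miR-205-5p: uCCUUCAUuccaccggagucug

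A match to that seed, ATGAAGG, was found in the annotated 3′ UTR (GENCODE M21) of 4 of the 33 genes. Among all 14847 protein-coding genes with a count and a 3′ UTR, 1721 had one (11.59%). The 4 sites are shown with their flanks and the seed match in capitals.
Ifit2: cagtggggATGAAGGgattgctg
Ifih1: ctcttatgATGAAGGgagtgaag
H2-D1: aatggcagATGAAGGaacttcca
H2-Eb1: agtttctgATGAAGGtccaatgt

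None of the 33 genes differed between KO and WT past an adjusted p of 0.05 in edgeR's quasi-likelihood test (all at 0.999), none had an unadjusted p under 0.05, and DESeq2 called none of them. This matched the background: 0% of the 15364 genes tested were called, with 147 at an unadjusted p under 0.05, and DESeq2 called 4. Of the 33, 18 had a positive log2 fold change of KO over WT and 15 a negative one, with a median of 0.11. The median over all genes tested was -0.14. Stat2, Tapbp and Psmb8 were higher in both KO libraries than in both WT libraries, an ordering that 13.2% of all tested genes had. Rsad2, Ifih1 and Ciita were lower in both KO libraries, an ordering that 19.2% of all tested genes had. The other 27 genes overlapped between the groups.

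The levels of the 33 genes spanned a wide range. Per kilobase of exon, B2m had the highest mean level over the 4 libraries at 1129 CPM per kb, followed by H2-K1 at 176, H2-D1 at 96.4, Cd74 at 82.5, Tapbp at 24.5 and Gbp2 at 21.8 CPM per kb. Ciita had the lowest at 0.0718 CPM per kb. Libraries of both genotypes therefore had abundant B2m, H2-K1 and H2-D1 transcripts, while most interferon effectors stayed under 10 CPM in every library.

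Both cytoplasmic RNA sensors were lowest in KO replicate 2. Ddx58, which encodes RIG-I, a sensor of viral RNA ends, had 47.4 and 5.63 CPM in KO and 43.7 and 57.0 CPM in WT. KO replicate 1 lay between the WT libraries and KO replicate 2 far below them, so the groups overlapped, and the log2 fold change was -0.93 ± 0.98 (SE). Without KO replicate 2 it was -0.08. Ifih1, which encodes MDA5, a sensor of long double-stranded RNA, had 23.8 and 9.47 CPM in KO and 26.2 and 38.6 CPM in WT. Both KO libraries were below both WT libraries here, and the difference of -0.96 ± 0.64 (unadjusted p = 0.194, edgeR quasi-likelihood test, adjusted p = 0.999) did not pass. KO replicate 1 alone left a log2 fold change of -0.44.

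Transcription factors of the response were measured at moderate levels in every library. Stat2, the subunit that brings the activation domain to the ISRE-binding complex, had 30.4 and 29.8 CPM in KO and 29.0 and 21.6 CPM in WT. Both KO values were above both WT values, by a margin smaller than the gap between the WT libraries (log2 fold change 0.25 ± 0.45, 0.27 without KO replicate 2). Irf9, the DNA-binding subunit of that complex, had 2149 and 841 counts in KO and 1707 and 1249 counts in WT, with mean levels of 27.2 ± 9.92 CPM in KO and 25.6 ± 6.57 CPM in WT (SD, n = 2 each). The KO libraries lay on either side of the WT range in CPM. Irf7, which amplifies interferon gene transcription and is itself induced by interferon, had 5.43 and 13.1 CPM in KO and 7.38 and 8.24 CPM in WT. Again 1 KO library was below and 1 above both WT libraries, and the log2 fold change of 0.25 ± 0.87 turned to -0.52 without KO replicate 2.

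The IFIT proteins bind foreign RNA and block its translation, and Isg15 is a ubiquitin-like protein that is conjugated to other proteins after interferon. Isg15 had 343 and 0 counts in KO and 291 and 355 counts in WT, which is 5.46 and 0 CPM in KO and 5.16 and 5.97 CPM in WT. KO replicate 1 was inside the WT range, and KO replicate 2 held no read. Ifit1 had 6.25 and 0 CPM in KO and 5.18 and 2.99 CPM in WT. Ifit2 had 7.67 and 0 CPM in KO and 4.76 and 6.96 CPM in WT. Ifit3 had 1.85 and 0 CPM in KO and 1.08 and 1.03 CPM in WT. For these 3 genes KO replicate 1 was the highest of the 4 libraries and KO replicate 2 the lowest, at 0. Their log2 fold changes were -0.38 ± 2.41, -0.61 ± 2.38 and -0.19 ± 2.48, and without KO replicate 2 they were 0.62, 0.39 and 0.81. Isg15 gave -1.03 ± 2.37 with all libraries and -0.03 without that one.

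Rsad2 and Ifi44 followed a similar course in KO replicate 2, with a few reads left. Rsad2, which encodes viperin, an enzyme that makes a chain-terminating nucleotide, had 345 and 12 counts in KO and 404 and 696 counts in WT, or 5.49 and 0.288 CPM in KO and 7.17 and 11.7 CPM in WT. It was lower in both KO libraries, and its log2 fold change of -1.71 ± 1.53 was the most negative of the 33 genes (unadjusted p = 0.315, edgeR quasi-likelihood test, adjusted p = 0.999). KO replicate 1 alone left -0.78. Ifi44, an interferon-induced gene that marks type I responses in many tissues, had 7.57 and 0.0479 CPM in KO and 4.03 and 11.1 CPM in WT. KO replicate 1 lay inside the wide WT range, and KO replicate 2 held 2 counts.

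Oasl2, Gbp2, Gbp3, Rtp4 and Oas1a kept reads in KO replicate 2. Oasl2, of the oligoadenylate synthetase family, had 24.1 and 31.0 CPM in KO and 22.1 and 27.5 CPM in WT. Its groups overlapped, and its log2 fold change of 0.15 ± 0.46 turned to -0.04 without KO replicate 2. Gbp2, a guanylate-binding GTPase that attacks the vacuoles of intracellular pathogens and is strongly induced by interferon gamma, had 65.9 and 39.1 CPM in KO and 52.2 and 62.3 CPM in WT. It was the most abundant interferon effector of the list, and its KO libraries lay on either side of the WT range. The log2 fold change of Gbp2 was -0.12 ± 0.40, and 0.21 without KO replicate 2. Gbp3, of the same family, had 14.4 and 29.2 CPM in KO and 9.87 and 17.3 CPM in WT. Rtp4, a receptor transporter protein induced by type I interferon, had 6.68 and 28.2 CPM in KO and 8.06 and 4.17 CPM in WT. For both genes KO replicate 2 was the highest library and KO replicate 1 was inside the WT range. The log2 fold changes of 0.68 ± 0.68 for Gbp3 and 1.51 ± 0.98 for Rtp4 came to 0.08 and 0.13 without KO replicate 2. Oas1a, which makes the 2-5A messenger that activates RNase L, had 1.18 and 5.90 CPM in KO and 2.91 and 3.08 CPM in WT, and its log2 fold change of 0.24 ± 1.33 turned to -1.34 without that library.

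The remaining effectors had the lowest mean CPM of the interferon-induced group. Mx1, a dynamin-like GTPase that blocks influenza viruses in mice, had 77 and 0 counts in KO and 27 and 0 counts in WT. Mx2, its paralogue, had 0.70 and 0 CPM in KO and 0.852 and 0.555 CPM in WT. Usp18, the protease that removes Isg15 from its targets, had 1.29 and 0.767 CPM in KO and 1.31 and 0.555 CPM in WT. Bst2, or tetherin, which holds budding virus on the cell surface, had 0.923 and 0.288 CPM in KO and 1.26 and 0.605 CPM in WT. All 4 overlapped between the groups.

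**Figure D1:**
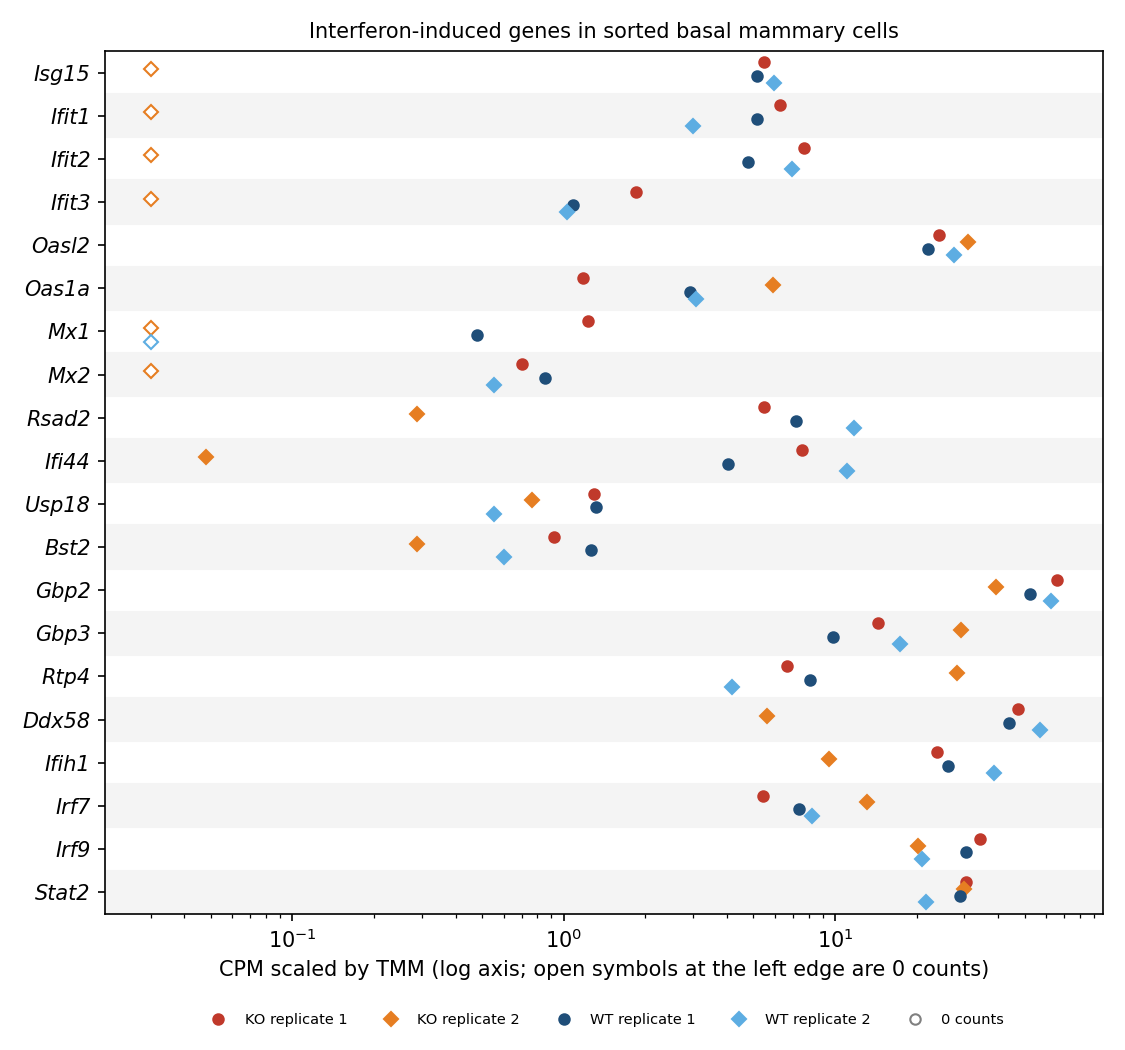
Level of each of the 20 interferon-induced genes in every library, as CPM scaled by TMM on a log axis, with open symbols at the left edge for 0 counts. KO replicate 2 (orange diamonds) had 0 counts for Isg15, Ifit1, Ifit2, Ifit3, Mx1 and Mx2, while Rtp4 was highest there at 28.2 CPM.

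Across the 20 interferon-induced genes, 9 log2 fold changes were positive and 11 negative, from -1.71 to 1.51, with a median of -0.16. Their summed level was 292 and 213 CPM in KO and 263 and 302 CPM in WT. KO replicate 1 lay inside the WT range for 9 genes, above it for 7 and below it for 4. KO replicate 2 was above it for 6, below it for 12 and inside it for 2. The same library was outside the WT range for most genes: of the 15364 tested it was above for 5257, below for 8432 and inside for 1675, while KO replicate 1 was inside for 5789. Without KO replicate 2 the median of the 20 genes was 0.04, 11 were positive, and 0 were called, as were 0% of all 16904 genes tested in that fit.

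The missing reads of KO replicate 2 were set beside all genes of like abundance. Among 3540 genes with a WT mean of 1 to 5 CPM, 40.6% had no read in KO replicate 2, against 0.593% in KO replicate 1. In that range 3 of 7 genes described here had 0 counts in KO replicate 2 (Ifit1, Ifit3 and Ciita). Among 1572 genes at 5 to 10 CPM, the share was 13.5% in KO replicate 2, against 0.0636% in its partner, and 2 of 6 genes described here had 0 counts in KO replicate 2 (Isg15 and Ifit2). At 10 to 50 CPM the share was 1.55% for all genes and 0 of 8 genes described here, and at 50 CPM or more it was 0% and 0 of 8. The other 4 genes, Mx1, Mx2, Usp18 and Bst2, had a WT mean under 1 CPM. In the 2 lower ranges loss of all reads was thus common across the transcriptome of this library. A level more than 4-fold below the WT mean, on log2(CPM + 0.5), was also counted in KO replicate 2. From the lowest to the highest range, 33%, 37.5%, 17.7% and 1.72% of all genes had such a level. Among the genes described here the counts were 2 of 7, 4 of 6, 1 of 8 and 1 of 8. The part of detection in the low Isg15 and IFIT values was not tested.

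**Figure D2:**
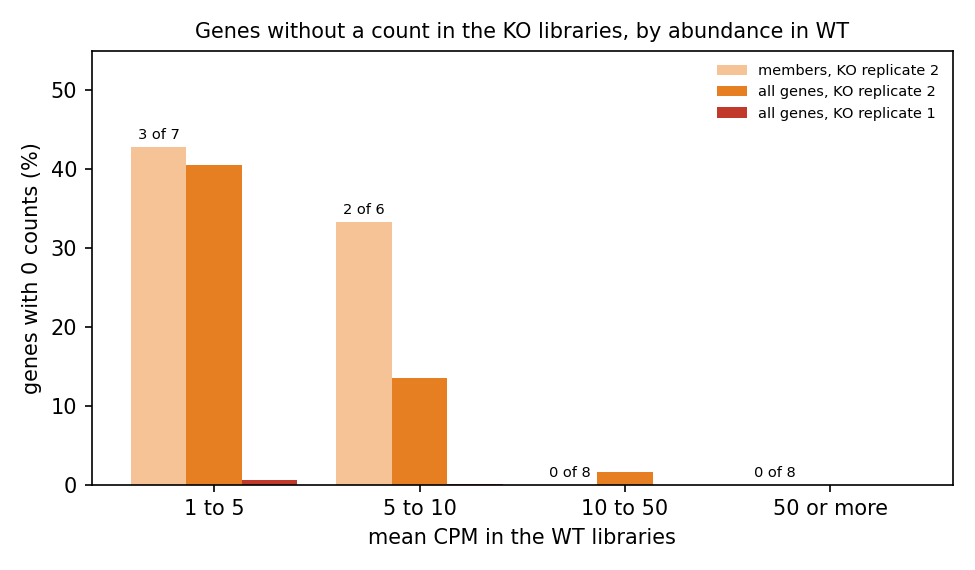
Share of genes with 0 counts in the KO libraries (percent), by mean CPM in the WT libraries, for the genes described here and for all genes in KO replicate 2 and for all genes in KO replicate 1. At 1 to 5 CPM, 3 of 7 described genes and 40.6% of all genes had 0 counts in KO replicate 2, against 0.593% of all genes in KO replicate 1.

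MHC class I molecules consist of a polymorphic heavy chain (H2-K1 and H2-D1 in the mouse) and the invariant light chain beta-2 microglobulin (B2m). These 3 genes were the most abundant of the list by CPM and had the smallest SEs of their fold changes. B2m had 1061 and 973 CPM in KO and 854 and 998 CPM in WT. H2-K1 had 489 and 615 CPM in KO and 428 and 533 CPM in WT. H2-D1 had 199.7 and 359.9 CPM in KO and 192 and 243 CPM in WT. The groups overlapped for all 3, with log2 fold changes of 0.14 ± 0.19, 0.20 ± 0.23 and 0.36 ± 0.35, and of 0.20, 0.03 and -0.12 without KO replicate 2. B2m averaged 1017 ± 62.3 CPM in KO and 926 ± 102 CPM in WT (SD, n = 2 each), a difference below the WT standard deviation. Class I heavy chain genes share long stretches of sequence with each other and with the H2-Q and H2-T genes, so their counts are uncertain where the counting could split reads.

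Peptides for class I are cut by the proteasome, pumped into the endoplasmic reticulum by the Tap1 and Tap2 transporter and loaded with the help of tapasin, the product of Tapbp. Tapbp had 67.2 and 172 CPM in KO and 66.7 and 49.8 CPM in WT. Both KO libraries were above both WT libraries, but KO replicate 1 exceeded WT replicate 1 by under 1 CPM. The log2 fold change of 1.04 ± 0.51 had the smallest unadjusted p of the 33 genes (0.0987, edgeR quasi-likelihood test, adjusted p = 0.999), and without KO replicate 2 it was 0.21. Tap1 had 12.6 and 31.9 CPM in KO and 12.2 and 19.0 CPM in WT, with KO replicate 2 alone above the WT range. Its log2 fold change of 0.51 ± 0.69 turned to -0.30 without KO replicate 2. Tap2 had 3.58 and 1.46 CPM in KO and 2.38 and 2.29 CPM in WT, with KO replicate 2 below the WT range and KO replicate 1 above. The subunits of this transporter thus stood on opposite sides of the WT range in KO replicate 2.

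Psmb8, an interferon-induced catalytic subunit that turns the proteasome into the immunoproteasome, had 517 and 203 counts in KO and 213 and 192 counts in WT, or 8.23 and 4.87 CPM in KO and 3.78 and 3.23 CPM in WT. Both KO libraries were above both WT libraries, and the gap did not shrink without KO replicate 2, as it had not for Stat2: the log2 fold change was 0.90 ± 1.01 with all libraries and 1.23 without it (unadjusted p = 0.414, edgeR quasi-likelihood test, adjusted p = 0.999, with all libraries). Nlrc5, the transactivator of class I genes, had 54.2 and 245 CPM in KO and 58.7 and 61.2 CPM in WT. KO replicate 1 was below both WT libraries and KO replicate 2 was 4.09 times the WT mean. Its log2 fold change of 1.32 ± 0.71 turned to -0.14 without KO replicate 2.

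**Figure D3:**
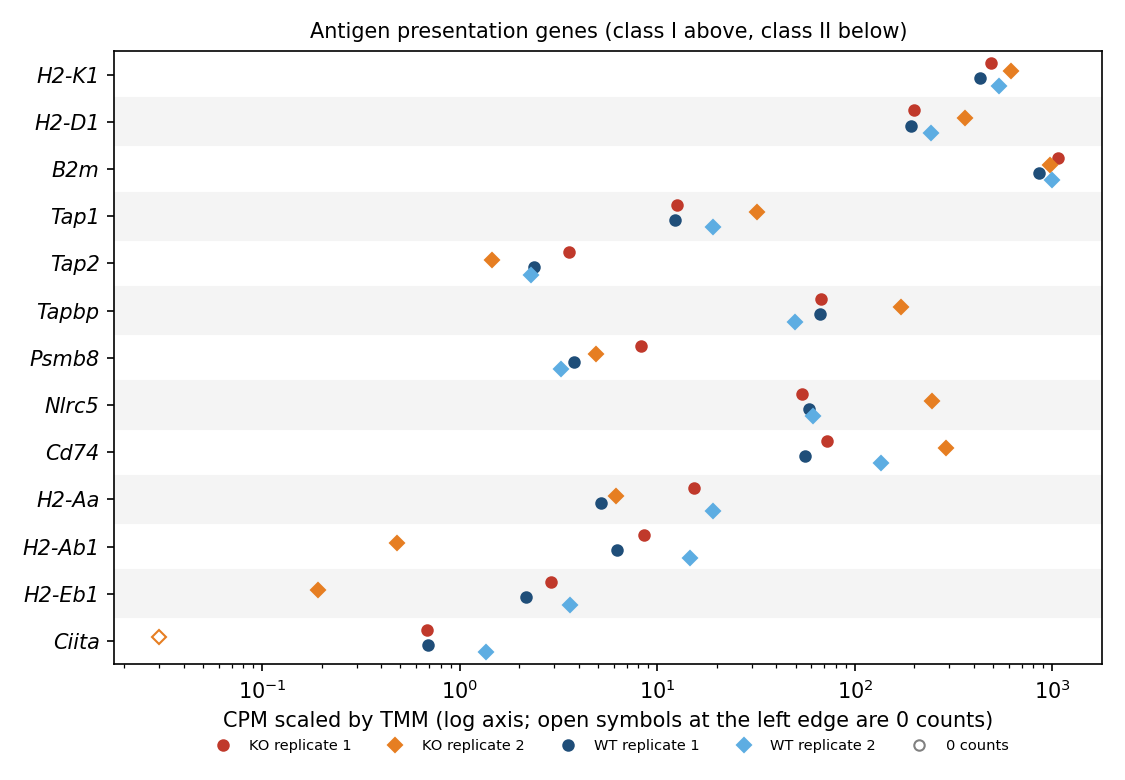
Level of the 8 class I genes (above) and 5 class II genes (below) in every library, as CPM scaled by TMM on a log axis, with an open symbol at the left edge for 0 counts. The class I genes B2m, H2-K1 and H2-D1 lay close together across libraries, while Nlrc5 and Cd74 were highest in KO replicate 2, at 245 and 289 CPM.

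All 8 class I genes had a positive log2 fold change, from 0.11 to 1.32, with a median of 0.44. Of all 15364 genes tested, 6569 had a positive one. The class I median was 0.29 with upper quartile scaling and 0.27 with total count scaling. None passed the test, and the size rested on KO replicate 2: without it 5 of 8 were positive and the median was 0.11. Their summed level, mostly B2m and the heavy chains, was 1896 and 2402 CPM in KO and 1617 and 1909.9 CPM in WT. The groups overlapped in that sum, since KO replicate 1 was below WT replicate 2.

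The 3 class II chains were lower in CPM than B2m and the class I heavy chains in every library, and differed more between the WT libraries. H2-Aa, the alpha chain of I-A, had 15.3 and 6.14 CPM in KO and 5.18 and 19.0 CPM in WT. H2-Ab1, its beta chain, had 8.51 and 0.479 CPM in KO and 6.26 and 14.6 CPM in WT. H2-Eb1, the beta chain of I-E, had 2.88 and 0.192 CPM in KO and 2.15 and 3.60 CPM in WT. The 3 chains had a WT spread of up to several-fold, with WT replicate 2 the higher WT library each time, and KO replicate 2 was below both WT libraries for H2-Ab1 and H2-Eb1. Their log2 fold changes were -0.17 ± 0.97, -1.21 ± 1.48 and -0.90 ± 1.70, and 0.34, -0.29 and 0.01 without KO replicate 2. Ciita, the transactivator on which class II transcription depends, had 43 and 0 counts in KO and 39 and 81 counts in WT. In CPM this was 0.684 and 0 in KO and 0.692 and 1.36 in WT, so that KO replicate 1 was below WT replicate 1 by less than 1 read is worth.

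Cd74, the invariant chain that guards the class II groove until a peptide is loaded, went against the 3 chains. It had 4521 and 12067 counts in KO and 3163 and 8117 counts in WT, or 71.9 and 289 CPM in KO and 56.1 and 136 CPM in WT. The second library of each genotype was the higher, and the groups overlapped (log2 fold change 0.91 ± 0.77, unadjusted p = 0.291, edgeR quasi-likelihood test, adjusted p = 0.999). Without KO replicate 2 the log2 fold change was -0.42. The summed luminal markers had the same order of libraries, at 1271 and 2129 CPM in KO and 1169.8 and 1804 CPM in WT, and their part in the Cd74 values was not tested. Of the 5 class II genes 1 had a positive log2 fold change and 4 a negative one, with a median of -0.90, and without KO replicate 2 the median was -0.29.

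Markers of immune cells were read beside the class II values. Of 30 immune markers 29 had a row, and they summed to 51.2 and 37.5 CPM in KO and 34.1 and 60.9 CPM in WT. Cd3d, Ms4a1, Nkg7 and Cd209a had 0 counts in all 4 libraries. Other lymphoid markers had reads, among them Cd3e of T cells, with 0 and 125 counts in KO and 43 and 21 counts in WT, and Cd79a of B cells, with 34 and 1 counts in KO and 23 and 54 counts in WT (both named after their values were seen). Of the 29 markers, 8 and 19 were at 0 in the KO libraries and 12 and 9 in the WT libraries. The most abundant were Cd14, a co-receptor for bacterial lipopolysaccharide, with 14.3 and 6.88 CPM in KO and 12.2 and 33.7 CPM in WT, Ptprc (the pan-leukocyte CD45) with 169 and 1044 counts in KO and 187 and 198 counts in WT, and Lyz2, a lysozyme of myeloid cells, with 20.0 and 1.37 CPM in KO and 3.50 and 4.44 CPM in WT. The sum was highest in WT replicate 2, as were H2-Aa, H2-Ab1 and H2-Eb1, and its part in these values was not tested. Among the most abundant markers only Cd14 was highest there. Ptprc was highest in KO replicate 2, at 2.69 and 25 CPM in KO and 3.32 and 3.33 CPM in WT. Lyz2 was highest in KO replicate 1. In bulk RNA, fewer cells of a type and less RNA per cell cannot be told apart. Endothelial markers summed to 157 and 91.7 CPM in KO and 109 and 195 CPM in WT, and fibroblast markers to 792 and 1192 CPM in KO and 679.5 and 752 CPM in WT.

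**Figure D4:**
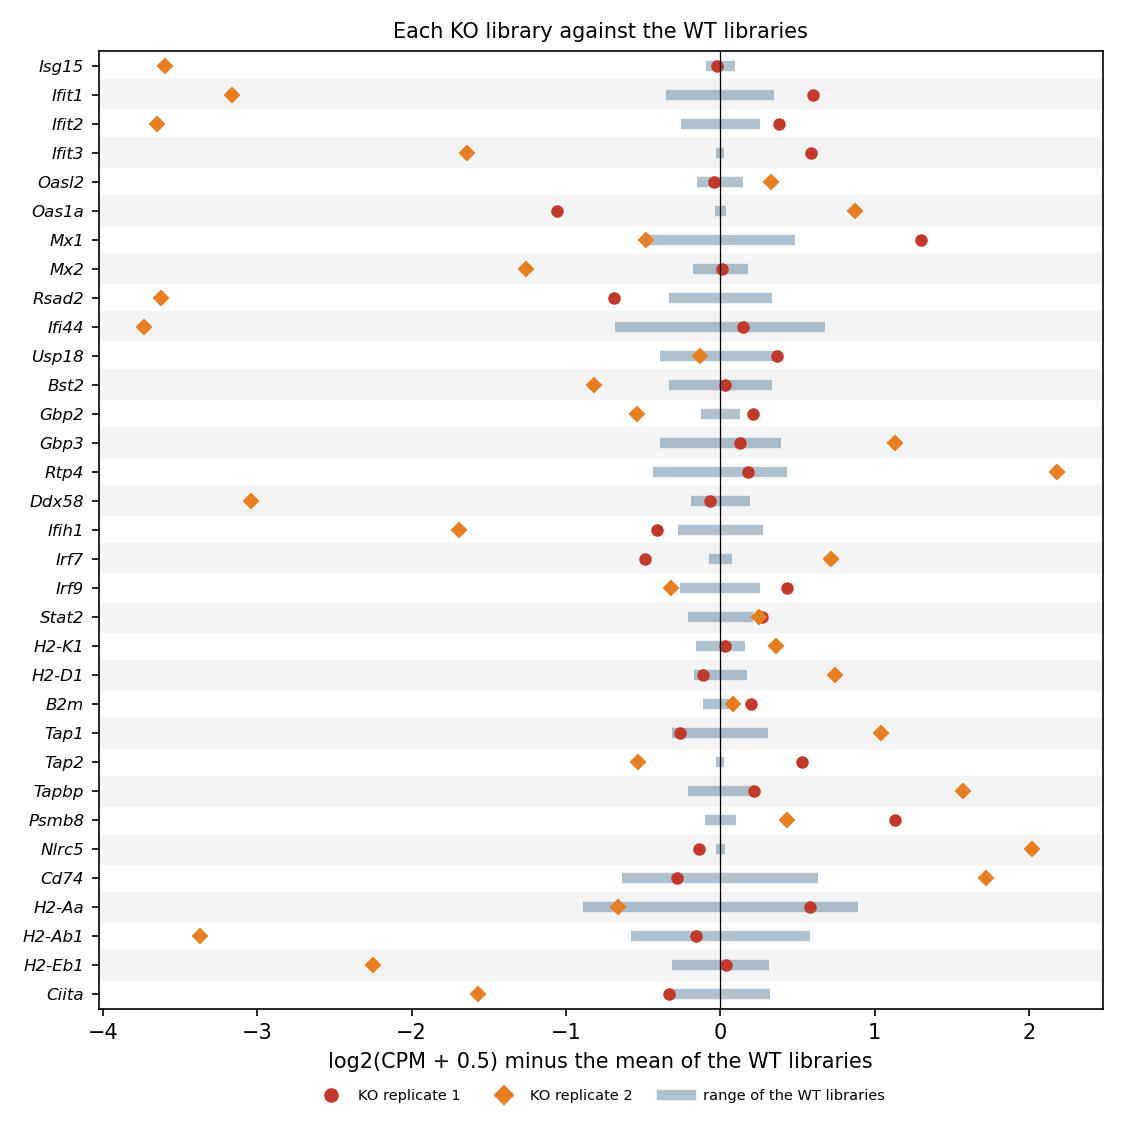
Difference of each KO library from the mean of the WT libraries, as log2(CPM + 0.5), with pale blue bars for the range of the WT libraries. KO replicate 1 (red circles) lay inside the WT range for 16 of 33 genes, while KO replicate 2 (orange diamonds) ran from -3.73 for Ifi44 to 2.18 for Rtp4.

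Each KO library was also set against WT on its own, with the lone library assumed to vary like the WT libraries. KO replicate 1 gave no call among these genes or among all genes. KO replicate 2 gave 16 calls among the 33 genes: 11 lower (Isg15, Ifit1, Ifit2, Ifit3, Rsad2, Ifi44, Ddx58, Ifih1, H2-Ab1, H2-Eb1 and Ciita) and 5 higher (Rtp4, H2-D1, Tapbp, Nlrc5 and Cd74). In the same fit 22.5% of all 16392 genes were called lower and 12.4% higher, so this library differed from WT across the transcriptome. Such calls compare 1 library with WT and not the genotypes.

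Ligand genes had few or no reads in KO replicate 1 and in WT, and 1 of them, Ifnb1, had many in KO replicate 2. Of 10 interferon genes listed, 8 had a row and none passed the low-count filter. Ifnb1, which encodes interferon beta, had 0 and 1175 counts in KO and 0 and 5 counts in WT, or 0 and 28.2 CPM in KO and 0 and 0.084 CPM in WT. Nearly all its reads thus came from KO replicate 2, the library in which Isg15 and the IFIT genes had no read. After Ifnb1, Ifne had 0.302 and 0 CPM in KO and 0.124 and 0.0168 CPM in WT, and Ifna2 had 0.302 and 0 CPM in KO and 0 CPM in both WT libraries.

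Receptors and signal carriers were measured for 22 of 25 genes listed, and 0 of the 22 were called. Their log2 fold changes were positive for 6 and negative for 16, with a median of -0.62 that came to -0.06 without KO replicate 2. Jak1, a kinase of both interferon receptors, had 659 and 575 CPM in KO and 636 and 643 CPM in WT. Jak2, a kinase of the interferon gamma receptor, had 111 and 41.5 CPM in KO and 104 and 118 CPM in WT. The groups overlapped for both, with KO replicate 2 the lowest library each time. The type I receptor chains were named after their values were seen. Ifnar1 had 56.5 and 45.2 CPM in KO and 45.4 and 51.3 CPM in WT. Ifnar2 had 33.4 and 25.9 CPM in KO and 24 and 25.3 CPM in WT, with a log2 fold change of 0.26 ± 0.45. Both KO libraries were above both WT libraries for Ifnar2, an ordering that 13.2% of all tested genes had. In KO replicate 2 both chains were within 1 CPM of a WT library.

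Of 68 other interferon-stimulated genes, 51 had a row and 48 were tested, with 0 called, 23 positive and 25 negative log2 fold changes and a median of -0.04. When KO replicate 2 was left out, 24 of 49 tested were positive and the median was -0.02. Ifitm3, a membrane protein that traps viruses in endosomes, was the most abundant, at 755 and 1097 CPM in KO and 614 and 619 CPM in WT. Both KO libraries were higher, an ordering that 13.2% of all tested genes had. The log2 fold change of Ifitm3 was 0.59 ± 0.24 (unadjusted p = 0.0583, edgeR quasi-likelihood test, adjusted p = 0.999) and 0.30 without KO replicate 2. Ly6e, which blocks coronavirus entry, had 504 and 692 CPM in KO and 418 and 517 CPM in WT, and Ifitm2 had 235 and 113 CPM in KO and 177 and 182 CPM in WT. In these 48 genes both KO libraries were higher for 8 and lower for 6, orderings that 13.2% and 19.2% of all tested genes had.

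The other class I and peptide-loading genes were tested for 23 of 25 listed, with 0 called, 5 positive and 18 negative log2 fold changes and a median of -0.14. With KO replicate 2 left out, 13 of the 23 were positive and the median was 0.04. Pdia3, a chaperone of the loading complex, had 333 and 276 CPM in KO and 283 and 363 CPM in WT. Calr, a further chaperone of that complex, had 234 and 233 CPM in KO and 227 and 256 CPM in WT. Psme1, a proteasome activator subunit, had 102 and 54.7 CPM in KO and 73.6 and 95.0 CPM in WT. The groups overlapped for all 3. Of 12 other class II pathway genes 9 were tested, with 0 called, 2 positive and 7 negative log2 fold changes and a median of -0.67. Without KO replicate 2, 4 of 10 tested were positive and the median was -0.28. Ctsl, a lysosomal protease, had 1109 and 536 CPM in KO and 968 and 889.6 CPM in WT, Lgmn, a further such protease, 6.97 and 2.49 CPM in KO and 8.27 and 9.23 CPM in WT, and Ctss, which trims the invariant chain, 2.50 and 1.20 CPM in KO and 2.15 and 3.75 CPM in WT.

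The 4 genes with a miR-205-5p seed match showed no common direction. Without KO replicate 2 their log2 fold changes were 0.39 for Ifit2, -0.44 for Ifih1, -0.12 for H2-D1 and 0.01 for H2-Eb1. With all libraries they were -0.61, -0.96, 0.36 and -0.90 in the same order of genes, and none passed the test.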

How the data were processed

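RNA of sorted basal mammary cells was measured in 4 libraries. The authors deposited raw counts of reads for each Ensembl gene, made with TopHat2 (2.02) and HTSeq on NCBIM37 (mm9), per the submitters' processing notes. The sources used here give neither the annotation release nor the strand setting, so overlapping, antisense and near-identical genes (the class I heavy chains, Ifit3 and Ifit3b, the Oas1 and Gbp clusters) have uncertain counts. Of the reads, 57.6% to 61.5% were in no feature and 0.71% to 0.79% were ambiguous; these summary lines stayed out of library sizes and tests.

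Symbols, exon lengths and 3′ UTRs came from GENCODE M21 (GRCm38), matched on gene identifiers for 86.9% of gene rows, and promoters and the microRNA from RefSeq. The quasi-likelihood test of edgeR 4.0.16 (R 4.3.3) compared genotypes after filterByExpr and TMM scaling, with Benjamini-Hochberg adjustment over all tested genes at 0.05. Log2 fold changes run KO over WT at edgeR's default prior count, and are not bounds for genes with 0 counts in a library. SE was the absolute log2 fold change over the square root of F. Alternatives were DESeq2 1.42.0, upper quartile and total count scaling, no filter, a mean CPM of 5 or more, a replicate block and each library left out. Tables used Python 3.11.15 and pandas 2.3.3. The members, their groups and the other gene lists were chosen with earlier results of these data known. Every member is named; in each other list the 3 genes with the highest mean CPM and any called gene are named, except a few genes not reported here and the basal, luminal, endothelial and fibroblast markers, which are given by their sums, and further genes are stated as chosen after their values were seen.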

Additional observations from a re-analysis of the deposited data

How the results depend on the processing

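Over all genes tested, 0 were called by edgeR under each scaling and filter tried, and 4 by DESeq2. With each library left out in turn the number of genes called ran from 0 to 5724 and that of the 33 described genes from 0 to 16. The upper ends came without KO replicate 1, where KO replicate 2 stood alone against WT, and without either WT library 5 genes were called. Under the same omissions the median log2 fold change ran from -1.73 to 0.04 for the interferon-induced genes, from 0.11 to 0.67 for class I and from -3.89 to -0.29 for class II. Replicate numbers are shared between genotypes, and deviations of same-numbered libraries from their group means correlated at 0.0205 over the genes tested. With 2 libraries per genotype this value cannot show whether the libraries were paired, and the main fit did not pair them. With the replicate block 0 genes were called, 79 had an unadjusted p under 0.05 (edgeR quasi-likelihood test), and the class II median was -1.86. The block turned Oas1a to -0.18 and Tap2 to -0.03, and total count scaling turned Irf9 to -0.01; the cause was not tested. The other 184 of 187 values of single genes outside the omissions kept their direction and side of the threshold. With a library left out, 19 genes turned sign at least once, 14 of them without KO replicate 2. Their ranges were -10.75 to 0.62 for Ifit1, -11.27 to 0.39 for Ifit2, -8.79 to 0.81 for Ifit3, -0.04 to 0.32 for Oasl2, -1.34 to 0.97 for Oas1a, -6.66 to 8.08 for Mx1 and -7.24 to 0.00 for Ifi44. They were -0.35 to 0.89 for Usp18, -1.69 to 0.00 for Bst2, -0.55 to 0.21 for Gbp2, -0.52 to 0.75 for Irf7, -0.35 to 0.42 for Irf9, -0.12 to 0.72 for H2-D1 and -0.30 to 1.03 for Tap1. They were -0.68 to 0.62 for Tap2, -0.14 to 2.03 for Nlrc5, -0.42 to 1.69 for Cd74, -0.98 to 1.05 for H2-Aa and -3.89 to 0.01 for H2-Eb1. The biological coefficient of variation over the 4 libraries was 0.932, and the smallest SE among the 33 genes was 0.19 on the log2 scale (B2m). At the depth of KO replicate 2 a count of 0 allows up to 0.0719 CPM.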
